A study of Mus musculus with 8 samples.

Results

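Complexes II to V are, with complex I, the machines of oxidative phosphorylation in the inner mitochondrial membrane, and nearly all of their subunits are encoded in the nuclear genome. The genes described here were listed by symbol. No measured value entered the rule, but earlier results of these data were known when it was chosen. The list held 44 nuclear genes for the subunits of complexes II, III, IV and V, for cytochrome c and for the inhibitor of complex V. Of these, 43 had a row among the 48328 Ensembl genes of the table, and Cox4i1 was not analysed here. The 43 comprised 4 genes of complex II, 9 of complex III, 13 of complex IV, 15 of complex V, Cycs and Atpif1. All 43 reached 1 FPKM in at least 4 of the 8 libraries, the filter that left 10521 genes for testing. FPKM scale the fragments of a gene by the length of its transcript and by the mapped fragments of the library, so levels can be set side by side between genes.

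Total RNA was taken from the lower part of the tibialis anterior, a fast-twitch hindlimb muscle, of C57BL/6J mice aged 24 months. There were 4 K320E-skm libraries, from mice whose skeletal muscle carries a dominant mutant Twinkle, the helicase of mitochondrial DNA replication, and 4 wild-type libraries. Each genotype had 2 libraries labelled male and 2 labelled female. What drives the mutant copy, whether animals were pooled and how they were bred are not stated in the labels, so p-values measure only the spread between these samples. The comparisons ask how old muscle with mutant Twinkle differs from wild-type muscle in the nuclear part of the respiratory chain and ATP synthase.

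As background, complex II (succinate dehydrogenase) passes electrons from succinate to ubiquinone, and complex III passes them from ubiquinol to cytochrome c. Complex IV (cytochrome c oxidase) hands them to oxygen, and complex V (ATP synthase) uses the resulting proton gradient to make ATP. Complexes III, IV and V also hold subunits made from mitochondrial DNA, whereas complex II is made from nuclear genes only. Complex IV has pairs of nuclear isoforms, in which Cox6a2, Cox7a1 and Cox8b are the forms of striated muscle and Cox6a1, Cox7a2 and Cox8a the forms of most other tissues. In vertebrate cells the nuclear respiratory factors NRF1 and GABP are known regulators of many of these genes.

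The promoters of these isoforms, and that of the cytochrome c gene Cycs, are printed here because the isoform pairs carry one of the comparisons. RefSeq promoters (GRCm38.p6) were matched by symbol for 34 of the 43 genes. The genes with no entry used here were Sdhc, Uqcrc2, Uqcrb, Uqcrq, Cyc1, Cox6a2, Cox6c, Atp5a1 and Atp5f1. Each sequence below is the 250 bases before the RefSeq start, 5′ to 3′ on the strand of the gene. Capitals mark a match on either strand to GCGCANGCG (the core of the NRF1 site), CCGGAAG (the GABP or ETS core) or CANNTG (the E-box of myogenic factors), and overlapping matches run together. They lie at chr5:115348959-115349208 (minus strand) for Cox6a1, chr7:30183921-30184170 (plus strand) for Cox7a1, chr9:79759854-79760103 (minus strand) for Cox7a2, chr7:140900447-140900696 (minus strand) for Cox8b, chr19:7217617-7217866 (minus strand) for Cox8a and chr6:50566570-50566819 (minus strand) for Cycs.
Cox7a1: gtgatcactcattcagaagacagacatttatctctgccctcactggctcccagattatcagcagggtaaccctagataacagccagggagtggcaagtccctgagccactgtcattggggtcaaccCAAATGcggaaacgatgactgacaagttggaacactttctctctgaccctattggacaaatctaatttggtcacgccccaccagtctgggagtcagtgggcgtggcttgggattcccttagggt
Cox8b: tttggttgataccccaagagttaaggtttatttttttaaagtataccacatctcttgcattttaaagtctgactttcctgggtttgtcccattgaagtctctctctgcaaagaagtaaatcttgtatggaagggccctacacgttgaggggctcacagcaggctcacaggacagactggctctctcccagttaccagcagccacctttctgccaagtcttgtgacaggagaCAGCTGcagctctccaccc
Cox6a1: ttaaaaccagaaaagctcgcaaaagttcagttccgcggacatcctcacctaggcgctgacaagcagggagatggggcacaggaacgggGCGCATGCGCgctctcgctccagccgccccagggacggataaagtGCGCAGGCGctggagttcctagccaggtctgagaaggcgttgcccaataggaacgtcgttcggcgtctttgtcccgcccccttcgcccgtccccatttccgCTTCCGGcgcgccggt
Cox7a2: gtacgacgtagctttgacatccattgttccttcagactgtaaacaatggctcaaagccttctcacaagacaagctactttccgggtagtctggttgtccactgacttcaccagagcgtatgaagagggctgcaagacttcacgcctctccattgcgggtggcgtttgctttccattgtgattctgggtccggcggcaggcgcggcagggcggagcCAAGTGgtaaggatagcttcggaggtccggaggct
Cox8a: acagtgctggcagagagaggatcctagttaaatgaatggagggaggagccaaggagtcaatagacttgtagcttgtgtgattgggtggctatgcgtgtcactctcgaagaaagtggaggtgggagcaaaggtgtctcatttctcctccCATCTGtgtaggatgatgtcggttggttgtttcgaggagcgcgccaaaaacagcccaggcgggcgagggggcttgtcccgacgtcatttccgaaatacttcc
Cycs: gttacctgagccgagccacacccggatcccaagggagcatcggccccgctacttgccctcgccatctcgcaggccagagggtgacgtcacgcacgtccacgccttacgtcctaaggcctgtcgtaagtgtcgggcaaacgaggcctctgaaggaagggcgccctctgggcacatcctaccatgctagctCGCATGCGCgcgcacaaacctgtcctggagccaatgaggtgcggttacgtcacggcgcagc

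The windows of the ubiquitous Cox6a1 and of Cycs held the NRF1 core and had 26 and 23 CpG dinucleotides, whereas those of the muscle isoforms Cox7a1 and Cox8b had 4 and 1. Those of the ubiquitous Cox7a2 and Cox8a lay between, with 14 and 11. The Cox7a1, Cox7a2, Cox8a and Cox8b windows each held 1 E-box match and no NRF1 or GABP core. Over the 34 members with a promoter, the NRF1 core was found for 10 genes (29.4%), against 5.86% of the 27025 genes in the RefSeq table. The GABP core was found for 9 members (26.5%, against 7.83% of all genes), and a further motif, the ERR half-site AAGGTCA, for 3 (8.82%, against 4.70%). E-box matches were found for 61.8% of the members and 69.3% of all genes. The MEF2 site had no match among the members (3.42% of all genes). TATAAA was found for 1, Atp5l (2.94%, against 14.3%). The median GC content of the windows was 54.0% for the members and 52.4% for all promoters. These matches describe letters in a window and are not evidence of binding.

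The sum of FPKM ran from 731824 to 858029 over the libraries and the number of genes at 1 FPKM or more from 10167 to 11581. Without read counts in the table, the depth in reads is unknown. Twnk, the gene of Twinkle, was at 3.82 to 5.06 FPKM in the K320E-skm and 2.16 to 2.70 FPKM in the wild-type libraries. Muscle identity was clear in every library, with the muscle creatine kinase gene Ckm between 5421 and 7408 FPKM, whereas the T and B cell markers summed to at most 2.72 FPKM and the satellite cell markers to at most 0.859 FPKM. Myh4, the gene of the fastest myosin heavy chain, had a listed value of 0 for wild-type 4 and for all K320E-skm libraries but the first. The 2 mitochondrial ribosomal RNAs took 41.5 to 46.9% of all FPKM in K320E-skm and 31.2 to 37.5% in wild-type libraries. The median log2 fold change over all 10521 genes was −0.14, and −0.06 without wild-type 1, the library that was highest for 58.2% of all genes. The part of the ribosomal RNA share in this shift was not tested. K320E-skm 4 is labelled male, but its Xist level of 10.2 FPKM resembled that of the libraries labelled female (8.82 to 15.0) and not that of the others labelled male (0.0138 to 0.0226). The Y-linked gene Ddx3y was at 0.0117 FPKM in K320E-skm 4, 0.0152 to 0.0516 in the female-labelled and 14.3 to 21.6 in the other male-labelled libraries. Uty, Kdm5d and Eif2s3y went the same way. Results for the sex label are therefore also given without K320E-skm 4.

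In wild-type muscle these genes were among the abundant messages: their median level was 319 FPKM, against 4.74 FPKM for all genes tested. The highest was Atp5b, the catalytic beta subunit of ATP synthase, at 816 ± 106 FPKM (SD, n = 4), followed by the muscle isoforms Cox6a2 at 744 ± 68.5 and Cox8b at 665 ± 149.7 FPKM. The lowest was Cox6a1, at 22.2 ± 4.76 FPKM, and Atpif1 and Cox8a were the next lowest. The spans of Atp5b, Cox6a2 and Cox8b over the wild-type libraries overlapped, so their order is within the spread. Median wild-type levels by complex were 115 FPKM in complex II, 174 FPKM in complex III, 394 FPKM in complex IV and 325 FPKM in complex V. In complex II the 4 means spanned 3.02-fold, from Sdhc to Sdhb, and in complex III 4.74-fold, from Cyc1 to Uqcrb. In complex V they spanned 9.21-fold, from Atp5g2 to Atp5b, and in complex IV 33.6-fold, from Cox6a1 to Cox6a2.

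**Figure D1:**
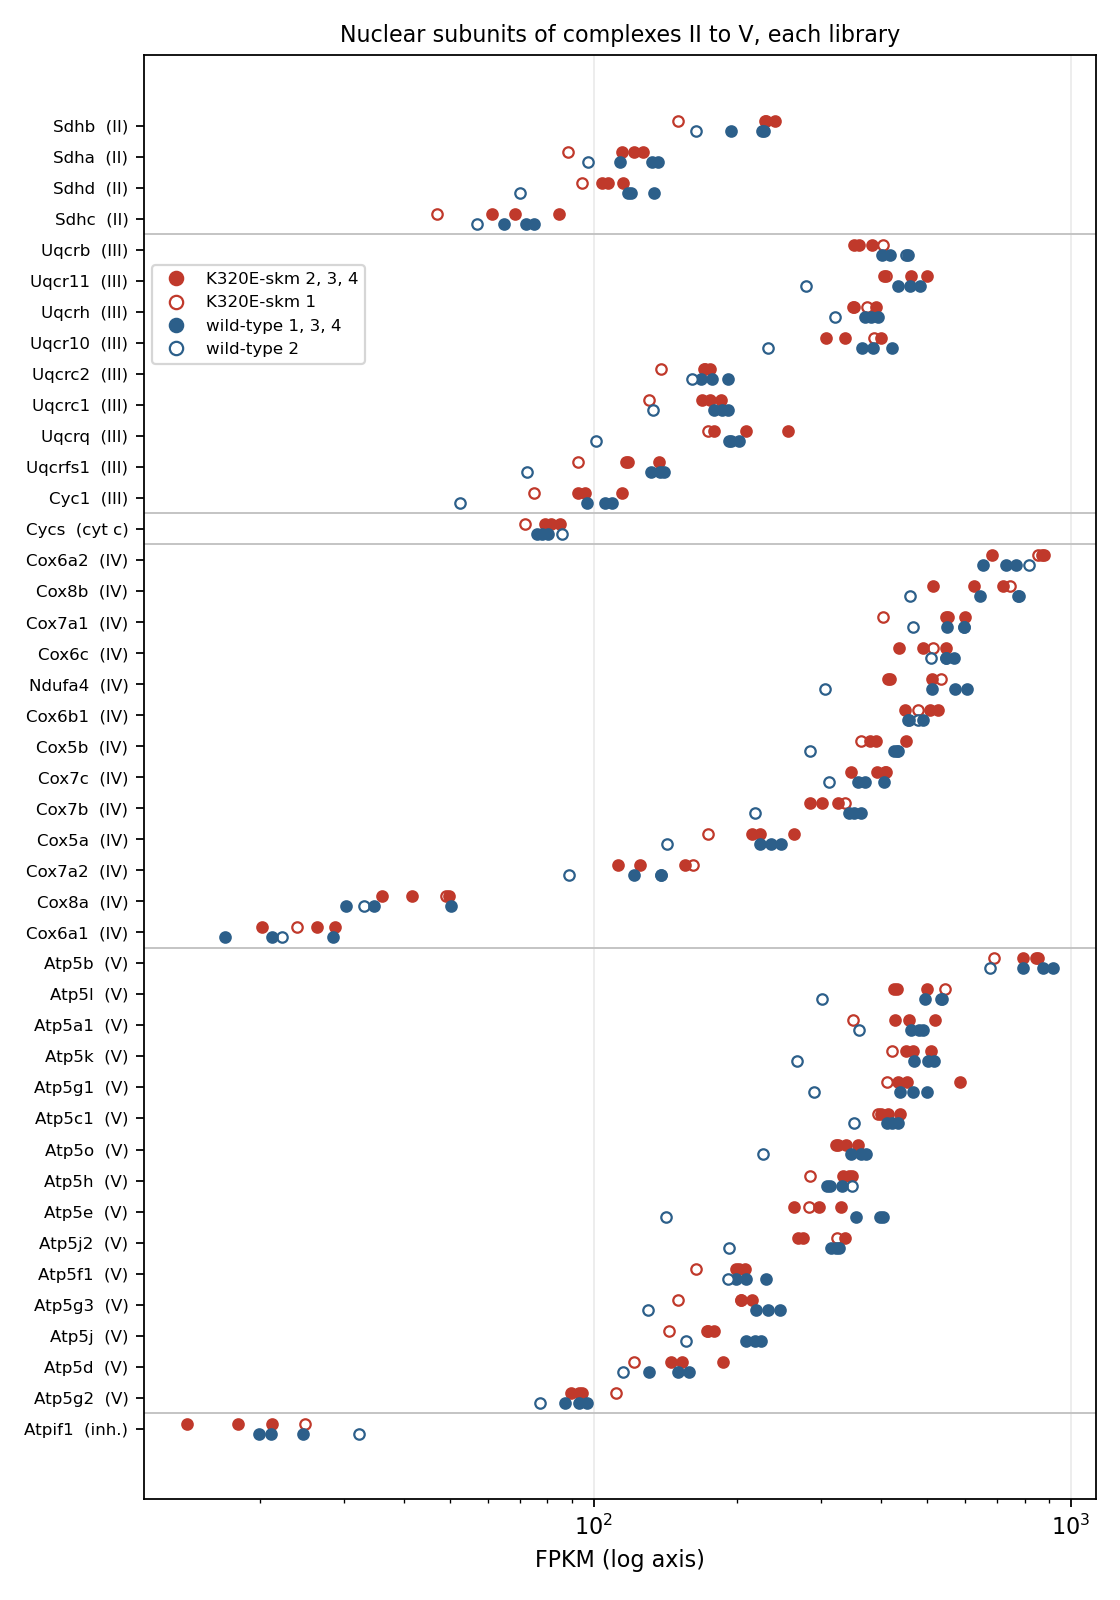
FPKM of the 43 subunit genes in each library, on a log axis, ordered within each complex by level; red marks K320E-skm and blue wild-type libraries, and open circles mark K320E-skm 1 and wild-type 2. The 2 genotypes overlap for every gene, and the open blue circle is the lowest of the 8 for 25 genes, for example Atp5e at 141 FPKM.

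Between genotypes, none of the 43 genes passed the threshold, a limma p adjusted by Benjamini-Hochberg over all 10521 genes of under 0.05, which 0.0190% of all genes passed. At an unadjusted p under 0.05 the count was also 0 of 43, against 13.1% of all genes (1.12% higher and 12.0% lower in K320E-skm). For 0 of 43 did the 4 K320E-skm libraries lie apart from the 4 wild-type libraries, against 9.92% of all genes (0.333% higher, 9.59% lower). The log2 fold changes, K320E-skm minus wild-type on the log2(FPKM + 1) scale, were positive for 23 genes and negative for 20. After median-ratio rescaling, which brought the median of all genes to 0.00, the split was 40 to 3. The sign changed for 17 of the 43 genes, and 2 genes had an unadjusted p under 0.05 (9.85% of all genes). Quantile normalization and scaling to nuclear protein-coding genes each gave 3 of 43 at an unadjusted p under 0.05, against 9.99% and 8.40% of all genes. The members' median was 0.01 on the FPKM as deposited, and 40 of 43 lay above the median gene, where 50.0% of all genes lie by definition; without wild-type 2 alone it was 24 of 43, and without both wild-type 2 and K320E-skm 1 it was 29. The smallest p belonged to Atp5j (0.148, adjusted 0.494).

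The precision of these 4 against 4 comparisons bounds what could be seen. On the FPKM as deposited, the 95% interval of every member spanned 0 and lay within 1 log2 unit on either side. For 34 of 43 it also lay within a 1.5-fold change in either direction. The most extreme bounds were −0.78 for Atpif1 (0.581-fold) and 0.83 for Uqcrq (1.78-fold). The point estimates inside these intervals move with the scaling. The highest of them rose from 0.28 to 0.46 under median-ratio rescaling, for which no interval bounds are given here. There 2 members had an unadjusted limma p under 0.05 (9.85% of all genes). The median standard error of the members was 0.18, against 0.15 for all genes. A miss of the threshold does not show that levels were equal. Median log2 fold changes by complex were −0.05 in complex II, 0.00 in complex III, 0.06 in complex IV and 0.03 in complex V, each above the −0.14 of all genes, and every complex had 0 genes past the threshold. Without wild-type 2 the medians of complexes II and III lay below that of all genes, with 1 of 4 and 4 of 9 of their genes above the median gene.

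**Figure D2:**
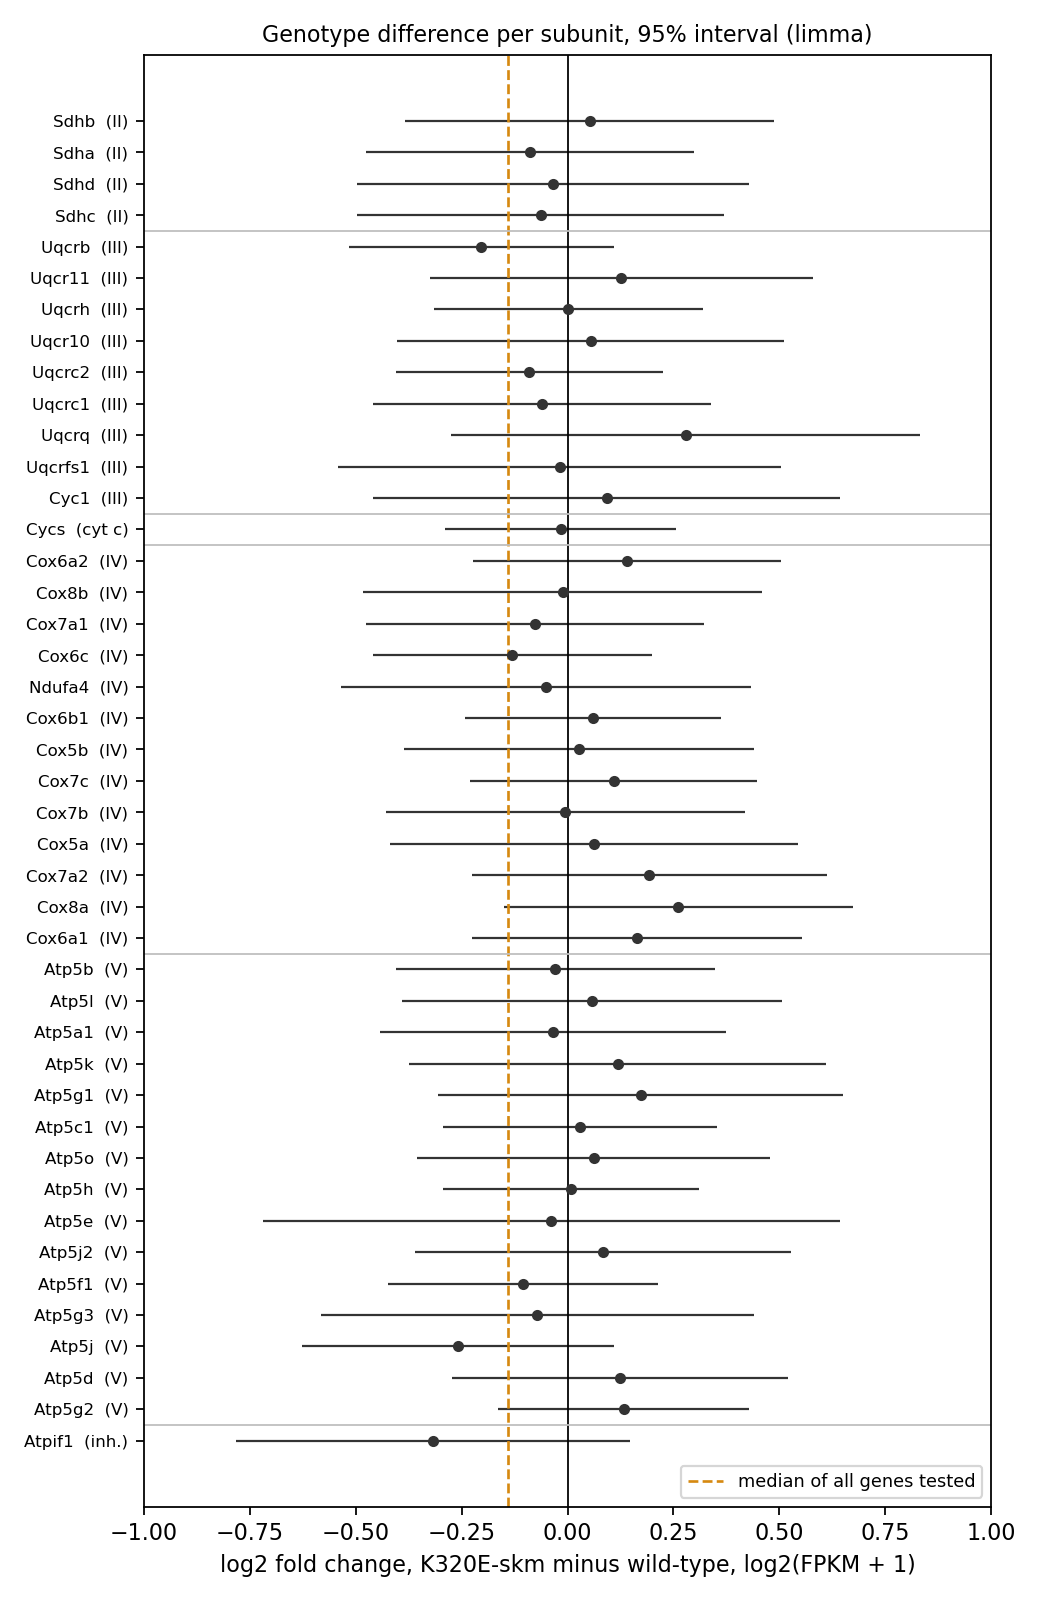
Log2 fold change of each subunit gene, K320E-skm minus wild-type on the log2(FPKM + 1) scale, with its 95% limma interval; the solid line marks 0 and the dashed line the median of all genes tested, −0.14. All 43 intervals cross 0, from Atpif1 at -0.32 to Uqcrq at 0.28.

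Complex II, the succinate dehydrogenase that also works in the citric acid cycle, had no gene past the threshold, and its 4 intervals lay within 0.50 log2 units of 0. Sdha, the flavoprotein subunit that oxidises succinate (ENSMUSG00000021577, chromosome 13, 74322254 to 74350280, GRCm38), was at 88.4, 127, 121 and 115 FPKM across K320E-skm libraries 1 to 4 and at 113, 97.4, 136 and 133 FPKM across wild-type libraries 1 to 4. Its means were 113 ± 17.0 and 120.0 ± 18.1 FPKM, a log2 fold change of -0.09 (95% interval -0.48 to 0.30). K320E-skm 1 was the lowest of the 8, and the other 7 overlapped. Sdhb, the iron-sulfur subunit, was at 150.0, 229, 240.3 and 228 FPKM across K320E-skm libraries 1 to 4 and 194, 164, 225 and 227 FPKM across wild-type libraries 1 to 4, with a log2 fold change of 0.05 (-0.38 to 0.49). Again K320E-skm 1 was the lowest, followed by wild-type 2. Sdhc, a membrane anchor, was at 47.0, 84.7, 61.3 and 68.4 FPKM across K320E-skm libraries 1 to 4 and 72.3, 56.8, 75.1 and 64.8 FPKM across wild-type libraries 1 to 4, with the same lowest library. For the other anchor, Sdhd, the lowest library was wild-type 2, and the log2 fold change was -0.03 (-0.50 to 0.43). The median deviation of the 4 genes from their own mean over all libraries was −0.41 in K320E-skm 1, against −0.28 in wild-type 2 and −0.11 for all genes in K320E-skm 1. Without K320E-skm 1 the median log2 fold change of complex II was 0.07, and without wild-type 2 it was −0.19.

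Complex III was represented by its 9 nuclear genes, with no group difference past the threshold. Uqcrb, a small subunit near the ubiquinone site (ENSMUSG00000021520, chromosome 13, 66900617 to 66905378), was at 404, 383, 352 and 359.7 FPKM across K320E-skm libraries 1 to 4 and 401, 452, 419 and 456 FPKM across wild-type libraries 1 to 4. Its means were 375 ± 23.7 and 432 ± 26.3 FPKM, a log2 fold change of -0.20 (SE 0.14, limma adjusted p = 0.517). The groups met only at their edges: K320E-skm 1 lay just above wild-type 1, the lowest wild-type value. Uqcrq, another small subunit (ENSMUSG00000044894, chromosome 11, 53427922 to 53430831), ran the other way, with 174, 255, 209 and 179 FPKM across K320E-skm libraries 1 to 4 and 194, 101, 202 and 192 FPKM across wild-type libraries 1 to 4. Its log2 fold change of 0.28 (SE 0.25, adjusted p = 0.613) was the highest of all 43, and wild-type 2 was far below the other 7 libraries. Uqcr11, the most abundant complex III gene over the 8 libraries, was at 410.3, 498, 462 and 405 FPKM across K320E-skm libraries 1 to 4 and 483, 278, 461 and 434 FPKM across wild-type libraries 1 to 4. Here too wild-type 2 alone stood low, and the log2 fold change was 0.13 (-0.33 to 0.58).

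The redox and core subunits of complex III, chosen here after their values were seen, had log2 fold changes of -0.02 for the Rieske iron-sulfur protein gene Uqcrfs1 and 0.09 for Cyc1, which encodes the cytochrome of this complex. For the core proteins they were -0.06 for Uqcrc1 and -0.09 for Uqcrc2. Uqcrh, the hinge protein, was at 0.00, with levels of 321 to 395 FPKM over the 8 libraries, and Uqcr10 was at 0.05. Cycs, which encodes the soluble cytochrome c that links complexes III and IV (ENSMUSG00000063694, chromosome 6, 50562563 to 50566538), was at 71.7, 81.4, 84.8 and 79.0 FPKM across K320E-skm libraries 1 to 4 and 80.3, 85.9, 76.1 and 77.9 FPKM across wild-type libraries 1 to 4. It had the smallest standard error of the members, 0.12, and a log2 fold change of -0.02 (-0.29 to 0.26), and it was highest in wild-type 2.

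In complex IV the 13 nuclear genes encode the subunits that surround the mitochondrially encoded core, and 8 had positive and 5 negative log2 fold changes, from -0.13 (Cox6c) to 0.26 (Cox8a). All 13 lay above the median gene, but without wild-type 2 the count was 7 of 13. Cox6a2 (ENSMUSG00000030785, chromosome 7, 128205435 to 128206387), the most abundant, was at 855, 869, 879 and 683 FPKM across K320E-skm libraries 1 to 4 and 733, 818, 769 and 655 FPKM across wild-type libraries 1 to 4. Its means of 821 ± 92.4 and 744 ± 68.5 FPKM gave a log2 fold change of 0.14 (SE 0.16, limma adjusted p = 0.699). The library that was low for most other members, wild-type 2, held the highest wild-type value of this gene. Its partner Cox6a1 (ENSMUSG00000041697, chromosome 5, 115345642 to 115348981) was at 23.8, 28.7, 26.3 and 20.1 FPKM across K320E-skm libraries 1 to 4 and 28.4, 22.2, 16.9 and 21.1 FPKM across wild-type libraries 1 to 4, with wild-type 3 the lowest.

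Cox7a1 (ENSMUSG00000074218, chromosome 7, 30184144 to 30186078), the muscle form of subunit VIIa, was at 404, 601, 548 and 552 FPKM across K320E-skm libraries 1 to 4 and 549, 467, 597 and 596 FPKM across wild-type libraries 1 to 4. K320E-skm 1 was the lowest, and the other 3 K320E-skm libraries lay within the wild-type span or just above it. Cox7a2 (ENSMUSG00000032330, chromosome 9, 79755361 to 79759878), the ubiquitous form, was instead highest in K320E-skm 1, with 162, 155, 125 and 112 FPKM across K320E-skm libraries 1 to 4 and 138, 88.9, 138 and 122 FPKM across wild-type libraries 1 to 4. The log2 fold changes were -0.08 (-0.48 to 0.32) for Cox7a1 and 0.19 (-0.23 to 0.61) for Cox7a2.

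Cox8b (ENSMUSG00000025488, chromosome 7, 140898945 to 140900446), the muscle form of subunit VIII, was at 747, 722, 628 and 514 FPKM across K320E-skm libraries 1 to 4 and 779, 461, 775 and 646 FPKM across wild-type libraries 1 to 4, a log2 fold change of -0.01 (SE 0.21). Wild-type 2 and K320E-skm 4 were the lowest. Cox8a (ENSMUSG00000035885, chromosome 19, 7215153 to 7217616), the ubiquitous form, was at 49.1, 49.7, 41.6 and 36.0 FPKM across K320E-skm libraries 1 to 4 and 50.3, 33.0, 34.6 and 30.2 FPKM across wild-type libraries 1 to 4. Its log2 fold change of 0.26 (SE 0.18, limma adjusted p = 0.527) was the highest of the complex, and wild-type 1, at 50.3 FPKM, was above all K320E-skm libraries. The remaining genes of the complex, Cox5a, Cox5b, Cox6b1, Cox6c, Cox7b, Cox7c and Ndufa4, had log2 fold changes between -0.13 and 0.11. Cox6b1, a subunit on the intermembrane side of the complex, was the steadiest of all members in wild-type muscle, with a coefficient of variation of 3.53%.

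Ratios of the muscle to the ubiquitous isoform compare 2 genes within a library and so barely depend on its scaling. They were tested with an exact two-sided permutation of the log2 ratio over the 70 assignments of 4 against 4, whose smallest possible p is 0.0286, adjusted over 5 ratios. Cox6a2 over Cox6a1 was 35.9, 30.3, 33.4 and 33.9 across K320E-skm libraries 1 to 4 and 25.8, 36.9, 45.5 and 31.0 across wild-type libraries 1 to 4. The means were 33.4 ± 2.33 against 34.8 ± 8.48 (SD), with exact p = 0.886 (adjusted 0.886), and the K320E-skm values lay inside the wild-type range. Cox7a1 over Cox7a2 was 2.50, 3.87, 4.38 and 4.91 across K320E-skm libraries 1 to 4 and 3.98, 5.26, 4.32 and 4.91 across wild-type libraries 1 to 4. K320E-skm 1 had the lowest ratio of the 8 and the others overlapped, so the means of 3.91 ± 1.03 against 4.61 ± 0.575 gave a log2 difference of -0.27 with exact p = 0.314 (adjusted 0.524). Cox8b over Cox8a was 15.2, 14.5, 15.1 and 14.3 across K320E-skm libraries 1 to 4 and 15.5, 14.0, 22.4 and 21.4 across wild-type libraries 1 to 4. The K320E-skm ratios were close together, and the wild-type ratios split into a lower pair, wild-type 1 and 2, and a higher pair, wild-type 3 and 4, so that the means of 14.8 ± 0.446 against 18.3 ± 4.19 differed by -0.27 on the log2 scale with exact p = 0.257 (adjusted 0.524). In all 8 libraries the muscle form exceeded the ubiquitous form in each of the 3 pairs, by at least 2.50-fold.

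**Figure D3:**
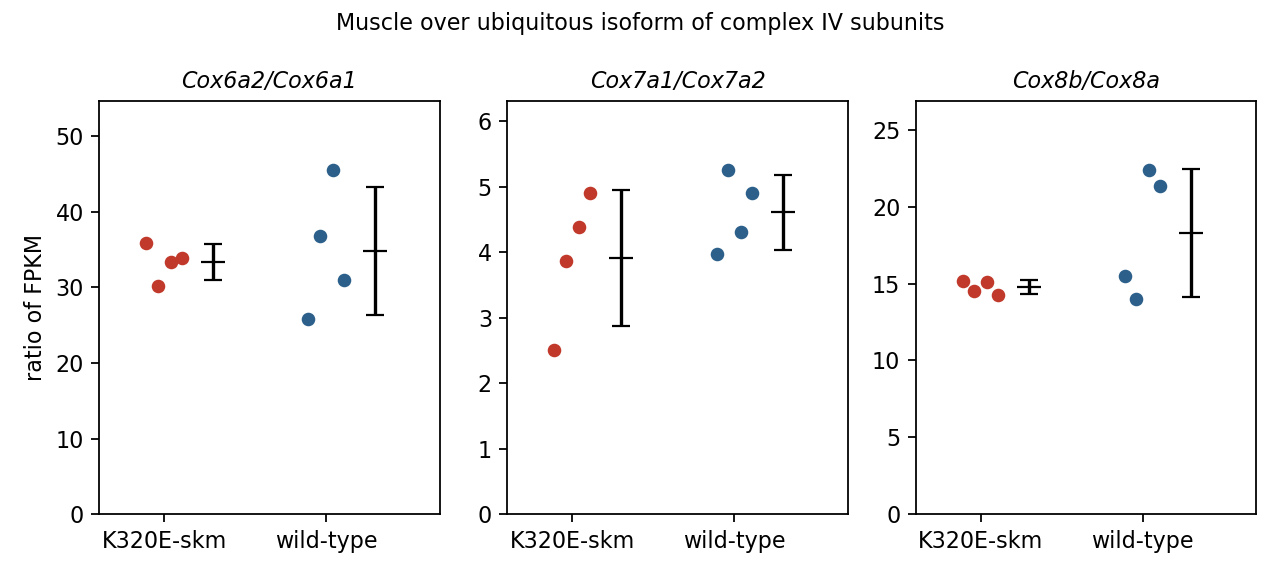
Ratio of FPKM of the muscle over the ubiquitous isoform for 3 subunits of complex IV, one point per library in the order 1 to 4, with the mean and SD beside each group of 4. The groups overlap in each panel, and the Cox8b/Cox8a ratio is 14.3 to 15.2 in K320E-skm and 14.0 to 22.4 in wild-type muscle.

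Complex V had 9 genes with positive and 6 with negative log2 fold changes. Of the catalytic head, Atp5b (ENSMUSG00000025393, chromosome 10, 128083273 to 128090391) was at 691, 855, 846 and 794 FPKM across K320E-skm libraries 1 to 4 and 794, 676, 876 and 917 FPKM across wild-type libraries 1 to 4, a log2 fold change of -0.03 (-0.41 to 0.35). The lowest values were those of wild-type 2 and K320E-skm 1. The alpha, gamma and delta subunit genes Atp5a1, Atp5c1 and Atp5d were at -0.03, 0.03 and 0.12. Atp5e, the epsilon subunit of the central stalk (ENSMUSG00000016252, chromosome 2, 174461072 to 174464105), which was picked after its values were seen, was at 282, 330.0, 297 and 263 FPKM across K320E-skm libraries 1 to 4 and 404, 141, 399 and 354 FPKM across wild-type libraries 1 to 4. Wild-type 2 was at 0.367 of the mean of the other 3 wild-type libraries, the lowest such ratio of the 43 genes, and the wild-type coefficient of variation of 38.2% was the largest. Without wild-type 2 and K320E-skm 1 it was the one member with an unadjusted p under 0.05, and its limma adjusted p there was 0.682.

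Of the peripheral stalk, Atp5j, which encodes coupling factor 6 (ENSMUSG00000022890, chromosome 16, 84827866 to 84835625), had the smallest p of all members. It was at 144, 174, 173 and 179 FPKM across K320E-skm libraries 1 to 4 and 209, 156, 224 and 217 FPKM across wild-type libraries 1 to 4, so wild-type 2 was the one wild-type library within the K320E-skm range. The means of 167 ± 15.8 and 202 ± 30.8 FPKM gave a log2 fold change of -0.26 (SE 0.16, adjusted p = 0.494). Without wild-type 2, when the lone female-labelled wild-type library is assumed to vary like the rest, the unadjusted p was 0.0263 and the adjusted p 0.375. Atp5f1, Atp5h and Atp5o, further genes of that stalk, were at -0.10, 0.01 and 0.06, and the membrane subunits Atp5j2, Atp5k and Atp5l at 0.08, 0.12 and 0.06.

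Atp5g1, Atp5g2 and Atp5g3 encode the same mature c subunit, which forms the rotating ring, and differ in the presequence. Atp5g1 (ENSMUSG00000006057, chromosome 11, 96068852 to 96075670) was at 411, 587, 435 and 454 FPKM across K320E-skm libraries 1 to 4 and 438, 289, 467 and 499 FPKM across wild-type libraries 1 to 4. K320E-skm 2 was the highest and wild-type 2 the lowest. Atp5g3 (ENSMUSG00000018770, chromosome 2, 73908447 to 73911326) was at 149.9, 215, 203 and 203 and 219, 130.1, 231 and 246 FPKM in the same order, with wild-type 2 and K320E-skm 1 lowest. Atp5g2 (ENSMUSG00000062683, chromosome 15, 102662864 to 102672352), the least abundant, was at 111, 94.5, 93.1 and 89.7 and 93.2, 77.2, 96.8 and 87.0 FPKM, and K320E-skm 1 was its highest library. The ratio Atp5g1 over Atp5g3 was 2.74, 2.73, 2.14 and 2.24 across K320E-skm libraries 1 to 4 and 2.00, 2.22, 2.02 and 2.03 across wild-type libraries 1 to 4. With means of 2.46 ± 0.322 against 2.07 ± 0.104 it had the smallest p of the 5 ratios, exact permutation p = 0.0571 (adjusted 0.286), and wild-type 2 lay above K320E-skm 3. For Atp5g2 over Atp5g3 the means were 0.520 ± 0.148 against 0.448 ± 0.102 and the exact permutation p was 0.429 (adjusted 0.536). Genes with near-identical copies, such as these and the processed pseudogenes known for many respiratory chain genes, can share fragments, and how the authors' software divided them is not stated in the labels.

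Atpif1 (ENSMUSG00000054428, chromosome 4, 132530555 to 132533659), whose product blocks ATP hydrolysis by complex V when the membrane potential falls, was the member with the most negative value. It was at 24.8, 14.1, 21.2 and 17.9 FPKM across K320E-skm libraries 1 to 4 and 24.5, 32.3, 21.1 and 19.9 FPKM across wild-type libraries 1 to 4. The means of 19.5 ± 4.57 and 24.5 ± 5.56 FPKM gave a log2 fold change of -0.32 (SE 0.21, limma adjusted p = 0.503). Wild-type 2, the lowest library for 25 of the 43 genes, was the highest here, K320E-skm 2, the highest for 16, was the lowest, and K320E-skm 1 lay above 3 of the 4 wild-type libraries.

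Many of these genes shared their lowest library. Wild-type 2 held the lowest of the 8 values for 25 of 43 genes (58.1%), against 12.1% of all genes tested, and K320E-skm 2 the highest for 16 (37.2%, against 8.44%). K320E-skm 1 was lowest for 11 genes (25.6%), about the share of all genes (25.0%). The 25 genes were 1 of complex II, 6 of complex III, 7 of complex IV and 11 of complex V. The median deviation of the members in wild-type 2 was −0.31, whereas that of all genes there was 0.04. After median-ratio rescaling wild-type 2 was still lowest for 25 members, against 19.3% of all genes, and wild-type 1 became the lowest for 14 (12.2% of all genes). In complex I, the closest comparison, wild-type 2 was lowest for 18 and K320E-skm 1 for 13 of its 36 nuclear genes. No test was run on this pattern, which was seen in the same values.

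Members differed in how far they followed it. In wild-type 2, 36 of 43 genes were below the mean of the other 3 wild-type libraries, and 21 were at under 0.75 of it. After Atp5e the lowest ratios were 0.504 for Cyc1, 0.517 for Uqcrq and 0.531 for Uqcrfs1. Sdhd was at 0.565. The genes at or above the other libraries were Cox6a1, Cox6a2, Cox6b1, Uqcrb, Cycs, Atp5h and Atpif1, at 1.00 to 1.48. In K320E-skm 1, 28 genes were below the mean of the other 3 K320E-skm libraries and 10 at under 0.75 of it. The lowest there were the complex II genes Sdhb (0.645) and Sdhc (0.658), while Cox7a2, Cox8b, Ndufa4, Atp5g2, Atp5l and Atpif1 were at 1.19 to 1.40. Only 5 genes were under 0.75 in both libraries: Uqcrc1, Uqcrfs1, Cyc1, Cox5a and Atp5g3. The ratios in this paragraph were chosen after the values were seen.

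**Figure D4:**
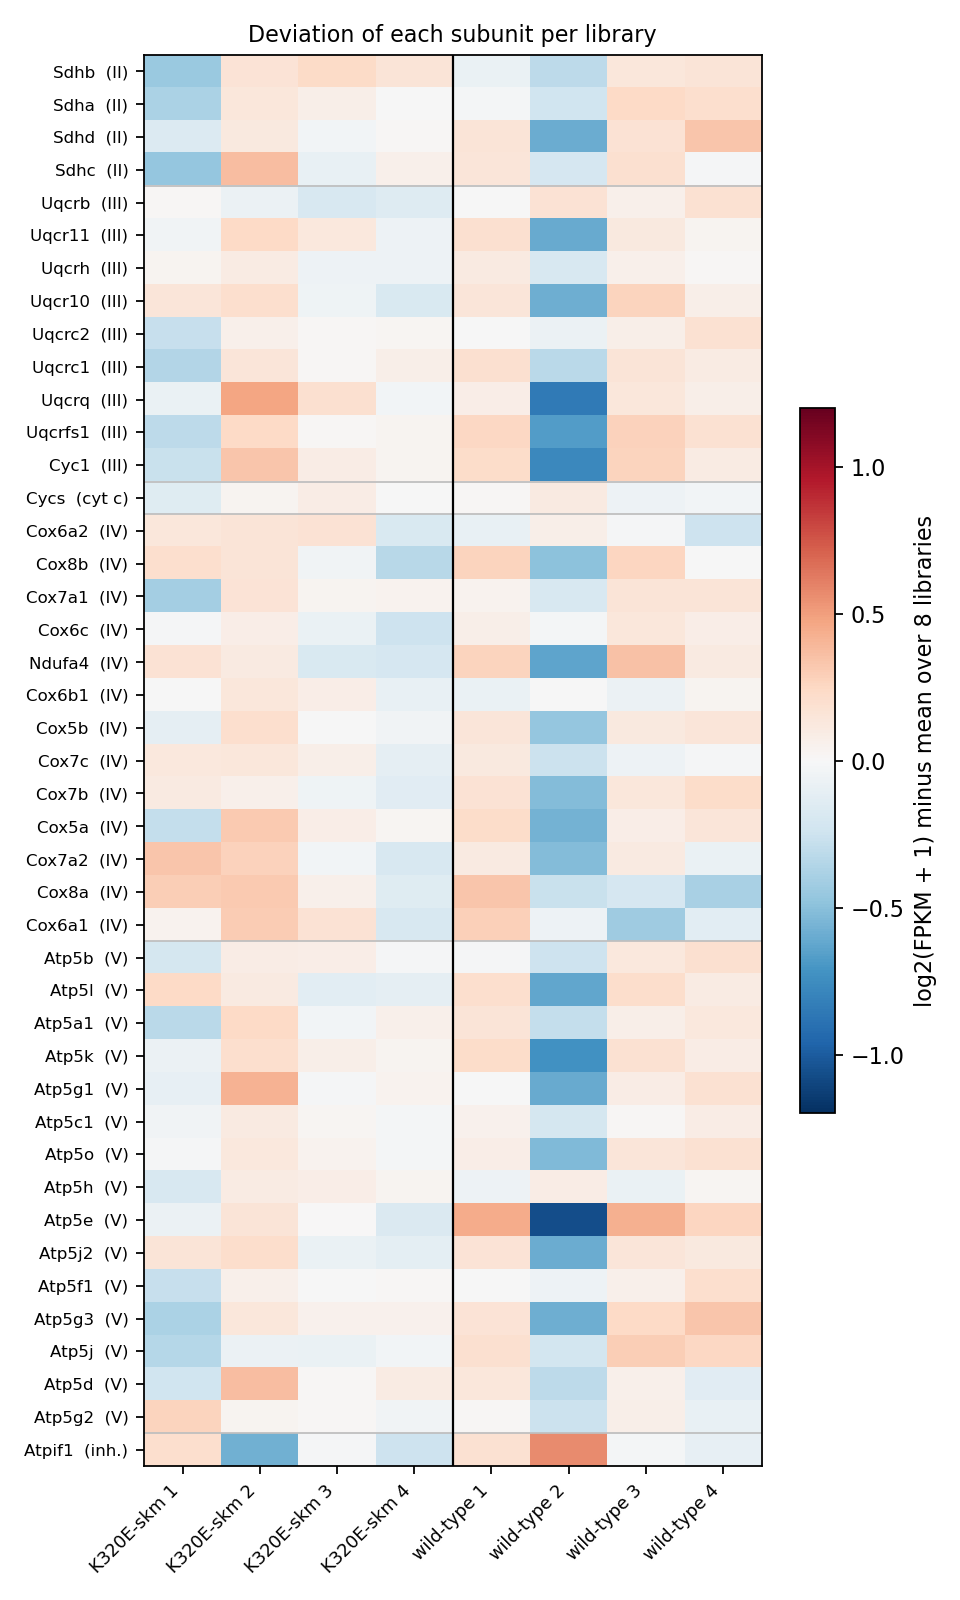
Deviation of each subunit gene in each library from its own mean over the 8 libraries, on the log2(FPKM + 1) scale, blue for lower and red for higher; the vertical line parts K320E-skm from wild-type libraries and grey lines part the complexes. Wild-type 2 is blue for most genes (median −0.31) but red for Atpif1, and complex II is blue in K320E-skm 1 (median −0.41).

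The wild-type spread of the members was larger with that library than without it. The median coefficient of variation of the members over wild-type libraries was 18.6%, near the 19.7% of all genes, and without wild-type 2 it was 5.88%, against 18.4% of all genes. In K320E-skm it was 11.3%, against 14.4%. Wild-type 2 was singled out from these same values, so a smaller spread of the members without it follows from that choice. All genes also had a lower median wild-type level, 4.74 FPKM against 319 FPKM, so the 2 spreads are not a like comparison. The median genotype difference of the members moved from 0.01 to −0.14 without wild-type 2, where 11 genes were positive, 32 negative and 2 had an unadjusted p under 0.05, both lower, against 12.2% of all genes. It was 0.07 without K320E-skm 1 (34 positive, 9 negative) and −0.06 without both libraries (12 positive, 31 negative). In that last set 1 gene had an unadjusted p under 0.05, against 7.30% of all genes, whose median was −0.12. In each of these sets 0 members passed the adjusted threshold, which 0.0475% of all genes passed without both libraries.

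Marker levels moved with some of these libraries. The summed FPKM of 4 smooth muscle markers was 68.9 in wild-type 2, where all 4 were highest, against 35.8 to 37.5 in the other wild-type libraries. It was 26.4 in K320E-skm 1, where all 4 were lowest, and 33.7 to 40.4 in the other K320E-skm libraries. The sum of 4 adipocyte markers was 98.2 in wild-type 2, 7.54 to 61.5 in the other wild-type and 20.9 to 32.2 in the K320E-skm libraries. Cfd alone gave 67.4 of the 98.2, and 2 of the 4, Cfd and Plin1, were highest in wild-type 2. Adipoq and Lep were highest in wild-type 1, at 19.0 and 4.27 FPKM, against 18.9 and 3.09 FPKM in wild-type 2. The sum of 8 slow or oxidative fibre markers was 80.7 in K320E-skm 1 and 160.4 to 429 in the other K320E-skm libraries, and 122 to 281 in the wild-type libraries, where wild-type 2 was at 178. Myh2 and Myl3 were the 2 of these 8 genes that were lowest in K320E-skm 1. Of the others, Tnnc1 was at 7.73 FPKM there, above K320E-skm 2 (2.69) and 4 (4.31). The sum of 8 fast fibre markers was 15799 to 22924 in K320E-skm, with K320E-skm 1 the highest, and 21344 to 27082 in wild-type libraries. Without Myh4, listed at 0 in 4 libraries, the sum was 15799 to 19959 in K320E-skm and 20851.5 to 23545 in wild-type libraries, with K320E-skm 1 and wild-type 2 at the edges facing each other. In wild-type 1, which became the lowest for 14 members after rescaling, 5 fibroblast markers summed to 498 FPKM, against 170.4 to 296 in the other wild-type and 187 to 288 in the K320E-skm libraries. No marker list had a gene past the threshold. The part of these markers in the members' values was not tested. In bulk muscle, fewer cells of a type and less RNA per cell cannot be told apart.

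Exon length was set beside the pattern. It is the summed length of the merged exons of all annotated transcripts of a gene, so it can exceed the length of the transcript expressed. Across the 43 genes, whose summed exon lengths were 360 to 6443 bases, Spearman's rho between exon length and the deviation in wild-type 2 was −0.01, and 0.20 across 9557 other protein-coding genes. In K320E-skm 1 rho was −0.45 across members, the longer genes being lower, and −0.21 across the others. The sign was opposite in K320E-skm 4 (0.43 across members) and wild-type 4 (0.37). The genes share libraries and are not independent, so no p is given. The 938 other protein-coding genes within the members' range of length, and at or above their lowest mean level, had a median deviation of −0.03 in wild-type 2.

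As a share of the FPKM of all nuclear protein-coding genes, which leaves mitochondrial RNA out of the denominator, the 43 genes took 5.89, 6.82, 6.70 and 5.78% across K320E-skm libraries 1 to 4 and 5.37, 4.54, 6.32 and 6.01% across wild-type libraries 1 to 4. The means were 6.30 ± 0.539% and 5.56 ± 0.787% (SD, n = 4 each), and the ranges overlapped. The difference between the means was within the spread of the wild-type libraries. No test was made of this sum over chosen genes. The same share for the complex I genes was 2.55 ± 0.187% and 2.34 ± 0.226%.

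**Figure D5:**
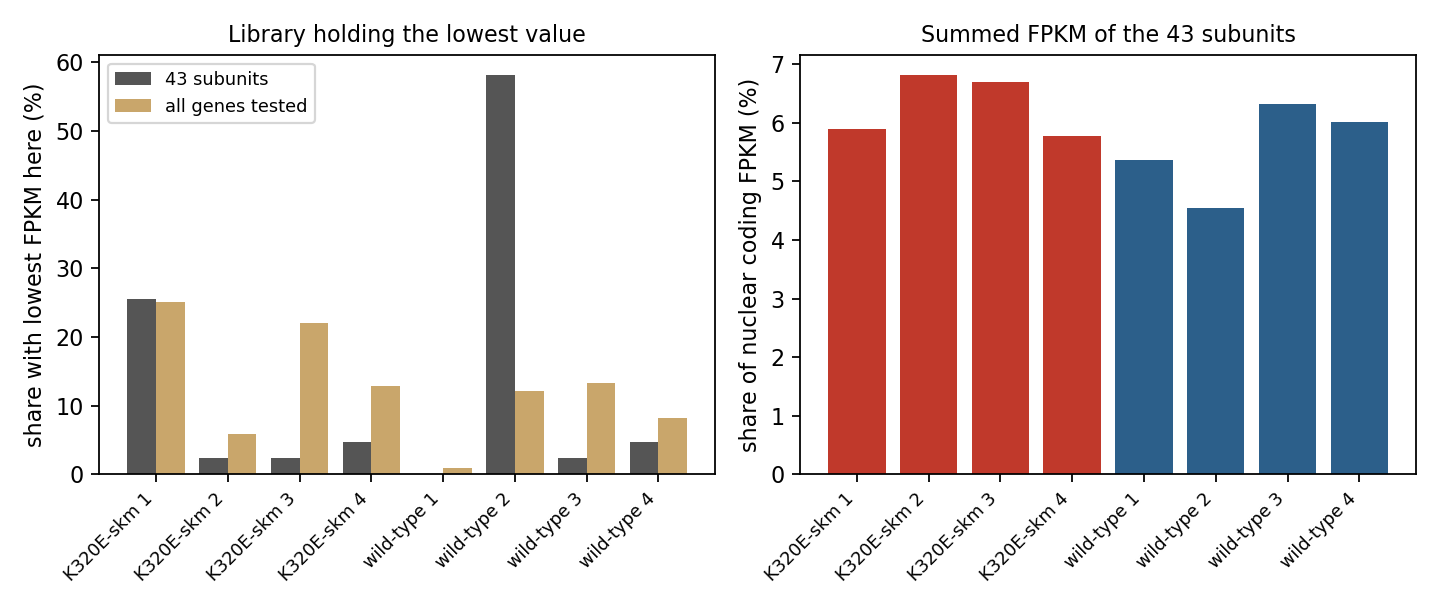
Left, the share of the 43 subunit genes (dark) and of all genes tested (tan) whose lowest FPKM fell in each library, in percent; right, the summed FPKM of the 43 genes as a share of nuclear protein-coding FPKM, in percent, red for K320E-skm and blue for wild-type. Wild-type 2 holds the lowest value for 58.1% of the subunit genes and has the lowest share, 4.54%.

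The sex label, the other labelled factor, gave 0 of 43 genes past the adjusted threshold in limma, as for 0.00% of all genes, and 0 at an unadjusted p under 0.05, against 2.70% of all genes. Values were higher in male-labelled libraries for 27 genes and lower for 16, with none of the 27 at an unadjusted p under 0.05 (1.84% of all genes, higher), and the median log2 difference was 0.04. These counts, the interaction estimates below and the sex term of the genotype fit all took K320E-skm 4 as male. Without K320E-skm 4, whose Xist level went against its label, 0 members passed for the sex label or the interaction. The genotype difference was not shown to depend on the sex label for any member: 0 of 43 passed in the interaction term, against 0.0190% of all genes, and 0 had an unadjusted p under 0.05, against 2.27%. The smallest interaction p was 0.0556, for Cyc1 (adjusted 0.999, limma). The estimates were negative for 41 of 43 genes, with a median of −0.43 against −0.14 for all genes. Wild-type 2 is 1 of the 2 female-labelled wild-type libraries and K320E-skm 1 is 1 of the 2 male-labelled K320E-skm libraries, so a low value in either makes that estimate more negative.

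Genes that work with these subunits were read from lists of the same pathway. Of 9 further structural genes 5 passed the filter, none of them past the threshold, and all 5 had negative log2 fold changes, as had 8369 of all 10521 genes, with a median of −0.10. After median-ratio rescaling 4 of the 5 were positive, with a median of 0.03. The smallest p were those of Atp5s, at -0.21 (limma adjusted p = 0.51), and Usmg5, a small subunit of ATP synthase, at -0.15 (adjusted p = 0.63). The testis forms Cox6b2, Cox7b2, Cox8c and Cyct were under the filter, and Cox8c and Cyct were listed at 0 in every library. Among the assembly factors, 35 were tested, with 5 positive and 30 negative values, a median of −0.11 and 0 past the threshold. After median-ratio rescaling the split was 21 positive and 14 negative. The lowest p in each group were those of Sdhaf3 and Sdhaf4 for complex II, Bcs1l and Ttc19 for complex III, Sco1 and Coa6 for complex IV, and Tmem70 and Atpaf1 for complex V.

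Sco1, a copper chaperone of complex IV, was at 1.42, 1.99, 2.03 and 1.63 FPKM across K320E-skm libraries 1 to 4 and 2.60, 1.73, 3.27 and 2.49 FPKM across wild-type libraries 1 to 4, with overlapping groups (log2 fold change -0.34, limma adjusted p = 0.391). Sdhaf3, which helps mature the iron-sulfur subunit of complex II, was at 1.44, 1.42, 1.60 and 1.58 FPKM across K320E-skm libraries 1 to 4 and 1.89, 1.65, 1.90 and 1.99 FPKM across wild-type libraries 1 to 4, and was the one assembly factor of 35 whose groups did not overlap, against 9.92% of all genes (adjusted p = 0.455). For Bcs1l, which inserts the Rieske protein, the log2 fold change was -0.21 (adjusted p = 0.443). Those of Coa6 and Tmem70 were -0.32 and -0.23.

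The mitochondrially encoded partners of these subunits comprised 6 genes, with 0 past the threshold, a median log2 fold change of −0.29 and 5 of 6 negative. Without wild-type 4 the median was −0.14, with 3 positive and 3 negative, and after quantile normalization it was −0.04. mt-Co1, the catalytic subunit of complex IV, was at 9809.9, 14733, 12414 and 13550.1 FPKM across K320E-skm libraries 1 to 4 and 13931, 17204, 16687 and 16977 FPKM across wild-type libraries 1 to 4. K320E-skm 2 lay above wild-type 1, and the log2 fold change was -0.37 (-0.84 to 0.10). mt-Atp6, a membrane subunit of complex V, was at 3.62, 5.05, 6.24 and 4.74 FPKM across K320E-skm libraries 1 to 4 and 7.03, 7.75, 9.10 and 8.15 FPKM across wild-type libraries 1 to 4, with no overlap between groups (log2 fold change -0.62, adjusted p = 0.295). Its level of a few FPKM stood beside 18795 ± 4751 FPKM for mt-Atp8, whose reading frame overlaps it on the same RNA, and mt-Co2 and mt-Co3 had group means between 0.981 and 1.84 FPKM. The division of fragments among these adjoining genes makes their single values uncertain.

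Of 8 regulators of the nuclear genes, 0 passed the threshold. Ppargc1a, a coactivator of mitochondrial biogenesis, was at 12.1, 40.7, 13.7 and 9.58 FPKM across K320E-skm libraries 1 to 4 and 7.16, 10.6, 7.01 and 9.41 FPKM across wild-type libraries 1 to 4. One library, K320E-skm 2, stood far above the rest, and the groups overlapped. The log2 fold change was 0.86 (limma unadjusted p = 0.0154, adjusted p = 0.337). Without K320E-skm 2 it was 0.49 (limma unadjusted p = 0.00712, adjusted p = 0.416), so the higher level did not come from that library alone. K320E-skm 2 was also the library with the most highest values among the 43 genes, but this rests on 1 library and a link was not tested. Tfam, which packages and transcribes mitochondrial DNA, was at 10.1, 11.1, 10.1 and 12.3 FPKM across K320E-skm libraries 1 to 4 and 13.6, 12.2, 13.6 and 18.5 FPKM across wild-type libraries 1 to 4 (log2 fold change -0.37, adjusted p = 0.36), and the groups met at their edges. Nrf1 and Gabpa, which encode factors whose core motifs were searched above, were at -0.21 and -0.30, named after their values were seen. The 36 complex I genes had 0 past the threshold and a median of −0.05, with Ndufb4 (-0.25, adjusted p = 0.427) and Ndufa12 (-0.23, adjusted p = 0.48) having the smallest p.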

How the data were processed

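FPKM per gene were deposited by the authors as 1 table of 48328 Ensembl genes by 8 libraries, made from total RNA with a stranded kit, per the labels. The submitters' processing notes name CASAVA, the aligner TopHat2 (2.0.10), Cufflinks (2.1.1) and the genome build mm10. Which annotation and strand setting were used, and how ribosomal RNA was treated, is not stated there, and overlapping genes and paralogs are uncertain. All 8 columns matched a sample by name, 0 columns were unmapped and no 2 libraries were identical. GENCODE M21 (GRCm38) gave symbols and coordinates for 47864 IDs; Atp5o was read from ENSMUSG00000022956.

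The two-sided test was limma (3.58.1, R 4.3.3) on log2(FPKM + 1), with sex label and genotype as terms, trended empirical Bayes and 5 residual degrees of freedom. It ran on the 10521 genes that reached 1 FPKM in at least 4 libraries. Adjusted p (Benjamini-Hochberg) under 0.05 was the threshold, and intervals are 95%. The pseudocount of 1 understates the change of low genes. Tested on simulated data of this comparison with 10521 genes, it recovered 74 of 100 genes at a log2 change of 1 and 99 of 100 at a change of 2, with 7 false calls. The simulated noise was independent between genes, without the deviations that genes of 1 library share. The changed genes were drawn from all genes, so these rates need not hold for the members. Motifs and figures used pandas 2.3.3 and matplotlib 3.10.9 in Python 3.11.15.

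The members and all lists were chosen with earlier results of these data known. Values per library were to be given for the isoform and c subunit genes, Cycs, Atpif1 and, in each complex, the most abundant gene and the 2 with the smallest p, and for other lists the 2 smallest p were named. Alternatives tried were no filter or one of 5 FPKM, a pseudocount of 0.1, 3 rescalings (median-ratio, quantile and nuclear protein-coding), no sex term, replicate number as a block, robust empirical Bayes and each library left out. Leaving out both K320E-skm 1 and wild-type 2, the nuclear protein-coding scaling of the isoform ratios, and the alternatives for the sex label and interaction terms were added after seeing the data.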

Additional observations from a re-analysis of the deposited data

Results flagged for a closer look

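A library stood apart from the other 3 of its genotype by Dixon's criterion (a gap to its nearest neighbour that takes most of the range) in 10 of 98 groups of 4 values, where chance gives about 4.9. In wild-type 2 the low values were 72.6 FPKM for the Rieske protein gene Uqcrfs1, 101 FPKM for Uqcrq, 284 FPKM for Cox5b, 217 FPKM for Cox7b and 192 FPKM for Atp5j2. In K320E-skm 1 they were 150.0 FPKM for the iron-sulfur subunit gene Sdhb and 139 FPKM for the core protein gene Uqcrc2. In K320E-skm 4 Cox6a2 was low at 683 FPKM. High ratios were those of Atp5g1 over Atp5g3 in wild-type 2, at 1.15 on the log2 scale, and of Atp5g2 over Atp5g3 in K320E-skm 1, at −0.43. Genes of one library are not independent, so these groups are not separate tests.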

How the results depend on the processing

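No member passed the adjusted threshold for genotype under any of the 18 alternatives, and the smallest adjusted p of a member ranged from 0.353 to 0.711 over the libraries left out and was 0.381 after median-ratio rescaling. Under that rescaling 2 members, both higher, had an unadjusted p under 0.05 (9.85% of all genes), led by Cox8a; quantile normalization and the nuclear protein-coding scaling gave 3 each, all higher (9.99% and 8.40% of all genes). Over the 10521 genes, the 2 calls for genotype became 1 without the filter, 2 or 3 with single libraries left out and 5 without both K320E-skm 1 and wild-type 2. With a filter of 5 FPKM, 1 of 4864 genes was called. Calls for the sex label were 0 in the main analysis, 0 to 4 with single libraries left out (4 without K320E-skm 4, 1 without K320E-skm 3 and 1 without wild-type 4) and 5 without both libraries. Calls for the interaction were 2, 8 without the filter, 2 to 5 with single libraries left out (4 without K320E-skm 1, 4 without K320E-skm 4, 5 without wild-type 4) and 20 without both libraries; no member was among them. With single libraries left out, the median of complex IV ranged from −0.14 (without wild-type 2) to 0.10 (without wild-type 4), and that of all members from −0.14 to 0.07. Under median-ratio, nuclear protein-coding and quantile scaling they were 0.24, 0.23 and 0.16 for complex IV and 0.19, 0.18 and 0.08 for all members. The cause of these shifts was not tested. No isoform ratio passed an adjusted p of 0.05 in any setting run; the smallest, 0.143 (exact permutation p = 0.0286), were those of Cox8b over Cox8a without wild-type 2 and of Atp5g1 over Atp5g3 without K320E-skm 3, where the groups no longer overlapped.

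Replicate numbers are shared between genotypes. Same-numbered libraries deviated together with r = 0.16, 0.02, 0.04 and 0.04 for numbers 1 to 4. Wild-type 1, 3 and 4 each correlated best with the K320E-skm library of the same number, and wild-type 2 with K320E-skm 4 (r = 0.09). These r were low and the labels name no pairs, so the numbers were not taken to pair the samples. With the replicate block, 2 genes and 0 members were called, the members' median stayed at 0.01, and the isoform ratios had exact permutation p of 0.125 to 1, where 0.125 is the smallest possible. Without counts, counting error could not be set beside any value.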
